A study of Mus musculus with 15 samples.

Results

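Smad1 to Smad7 were selected by gene name from a table of RNA levels, and all 7 were found among its 25012 genes. Their m6A peaks were taken by gene identifier from 3 deposited peak lists and numbered 21 of 22498 in the control, 19 of 24626 in the condition labelled sh-METTL3 and 19 of 27480 in the condition with added glucose. N6-methyladenosine (m6A) is an internal mark of messenger RNA, and a peak is a stretch of RNA enriched by an antibody against it. Mouse Podocyte Clone5 (MPC5) cells, 1 line of kidney podocytes, were studied in 3 conditions of 5 samples each: 2 of input RNA, 2 of RNA pulled down with the antibody and 1 whose kind was not named. The control was wild type and kept in standard medium, without virus. The sh-METTL3 cells received a virus with a short hairpin RNA against METTL3, the enzyme that writes m6A. The third condition received the same virus and then glucose, labelled as 25 µmol/L, for 72 hours. Studies of high glucose in culture mostly work in mmol/L, and the labelled unit could not be checked here. No condition had glucose without the virus, and effects of the virus itself and of the hairpin cannot be told apart. The RNA table held 1 library per condition, so no spread between replicates was available and each difference below compares single libraries.

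Smads carry signals of the transforming growth factor beta (TGF-beta) family from receptors on the cell surface to the nucleus. Smad2 and Smad3 are activated by TGF-beta and activin receptors, Smad1 and Smad5 by receptors for bone morphogenetic proteins (BMPs), and each pairs with Smad4 to regulate target genes. Smad6 and Smad7 hold the pathway back. In the kidney, TGF-beta signalling through Smad3 is known for its part in scarring of the glomerulus and loss of podocytes. The series title names Smad2/3 and METTL3 as steps of 1 axis.

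Below, 3 values of a gene stand in the order control, library labelled sh-METTL3 and library with glucose (the glucose library). The libraries held 54282720, 53655982 and 52807701 counts. An rRNA-like gene, CT010467, took 2.29%, 0.0834% and 0.0926% of them. The control thus differed from both virus libraries in make-up, and the part of this in the ratios was not tested. Mettl3, the target of the hairpin, was not lower in the libraries labelled for its knockdown. It stood at 2.34, 2.42 and 2.49 FPKM (fragments per length of transcript and size of library). Its ratios of count shares to the control were 1.05 (95% exact binomial interval 0.963 to 1.15) and 1.07 (0.983 to 1.17). METTL3 protein is not among these data, and the part of the hairpin in the differences below was not tested. Of 12 podocyte markers 9, 9 and 10 had counts, with summed levels of 96.9, 204 and 217 FPKM. Only 10 of the 12 were found by name among the genes with RNA levels. Ptpro, a phosphatase of mature podocytes, was not, so its level is unknown. Wt1 stood at 0.654, 0.0423 and 0.245 FPKM. Summed tubular markers stood at 59.0, 172 and 87.9 FPKM. These sums cover the 7 of 10 markers found by name. Slc34a1, Umod and Slc12a1 were not found, so their levels are unknown. Mesangial and fibroblast markers summed to 2.56, 5.50 and 5.27 FPKM, endothelial markers to 1.37, 0.971 and 3.09, and leukocyte markers to 5.28, 11.1 and 10.9. The podocyte, tubular, mesangial and leukocyte sums were lowest in the control, as were Smad1 to Smad5, and their part in the Smad results was not tested. In bulk RNA, fewer cells of a type and less RNA per cell cannot be told apart.

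RefSeq promoter windows (build GRCm38.p6, 250 bases before to 50 after a gene start) were matched for 4 of the 7 Smads, in 6 windows. The 180 bases before the start of Smad3, Smad5 and Smad6 are printed because a 5'UTR peak of each of these genes begins at exactly that start in every peak list. All are written 5′ to 3′ on the strand of the gene: Smad3 at chr9:63757995-63758174, Smad5 at chr13:56702830-56703009 and Smad6 at chr9:64022056-64022239, the last with the first 4 bases of the transcript. Capitals mark GGGCGG or its reverse complement, a GC box bound by Sp1-type factors, and in Smad6 also GTCTAGAC, the palindrome to which Smad3 and Smad4 bind in vitro.
Smad3: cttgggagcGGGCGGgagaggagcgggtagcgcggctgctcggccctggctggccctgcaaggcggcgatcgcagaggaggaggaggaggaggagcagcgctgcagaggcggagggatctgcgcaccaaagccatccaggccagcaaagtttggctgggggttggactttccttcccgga
Smad5: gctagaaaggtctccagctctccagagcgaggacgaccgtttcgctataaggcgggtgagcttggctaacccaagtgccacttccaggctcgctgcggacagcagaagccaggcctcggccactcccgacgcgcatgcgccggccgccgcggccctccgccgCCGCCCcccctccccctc
Smad6: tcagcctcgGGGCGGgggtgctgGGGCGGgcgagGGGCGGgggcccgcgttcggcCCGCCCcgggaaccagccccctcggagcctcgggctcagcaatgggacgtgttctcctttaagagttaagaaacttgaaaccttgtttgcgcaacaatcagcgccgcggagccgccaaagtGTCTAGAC
The palindrome of Smad6 spans its start, from base -4 to base 4, and was held by 70 of 32851 windows of this length (0.213%). GC boxes were held by 35.7% of all windows, and the Smad6 stretch has 4 of them. Also searched, on both strands, were CAGAC, held by 49.6% of all windows and by 1 further window of Smad5, and GGCGCC, held by 11.9% and by 2 windows of Smad5. A match is a run of letters and not a measured binding site.

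The Smads lie on 4 chromosomes. Positions here are those of the deposited files, which match mouse build GRCm38. Smad3 (ENSMUSG00000032402, chromosome 9, 63646767 to 63757994, minus strand) and Smad6 (ENSMUSG00000036867, chromosome 9, 63953076 to 64022059, minus strand) are neighbours with a gap of 195081 bases. Smad4 (ENSMUSG00000024515, 73639009 to 73703780, minus strand), Smad7 (ENSMUSG00000025880, 75367529 to 75395935, plus strand) and Smad2 (ENSMUSG00000024563, 76241580 to 76310963, plus strand) share chromosome 18. Smad1 (ENSMUSG00000031681, 79338395 to 79399518, minus strand) is on chromosome 8 and Smad5 (ENSMUSG00000021540, 56703010 to 56742377, plus strand) on chromosome 13. The annotated genes that overlap a Smad had at most 16 counts in any library and 0 peaks.

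Smad3, the TGF-beta effector that binds DNA itself, differed most between the libraries. Its level was 5.14, 24.2 and 19.3 FPKM, from 2364, 11196 and 8693 counts. The control was thus far below both virus libraries. Over the control, the ratio of count shares came to 4.79 (4.58 to 5.01) without glucose and 3.78 (3.61 to 3.96) with it. Between the 2 virus libraries it was 0.789 (0.767 to 0.811), lower with glucose. These intervals, like all intervals here, are 95% exact intervals of counting error only, and hold no spread between cultures or library preparations. Amplified reads were counted with no molecular identifiers, so the intervals may be too narrow even for counting error. On the log2 scale with 1 added to each FPKM and the median gene set to 0, Smad3 stood at 1.94 and 1.57 against the control, at percentile 99.0 of the 11591 tested genes in both comparisons. The added 1 makes ratios of genes at low FPKM smaller, and tested genes are those with a mean of at least 1 FPKM, which all 7 Smads reached.

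Smad2, the other effector of TGF-beta receptors, stood at 3.60, 5.77 and 4.66 FPKM. Its count ratio to the control was 1.63 (1.55 to 1.71) in the library labelled sh-METTL3 and 1.31 (1.24 to 1.37) with glucose. Relative to the median gene this came to log2 ratios of 0.45 and 0.14, at percentiles 73.4 and 59.7 of tested genes. Smad2 was therefore highest in the library labelled sh-METTL3, as Smad3 was, but its difference lay within the range of most genes. Against genes of its own length the glucose ratio turned to -0.10, since long genes stood higher as a group in both virus libraries. The median log2 ratio to the control ran from -0.70 in the shortest decile of genes to 0.45 in the longest for the library labelled sh-METTL3, and from -0.64 to 0.29 for the glucose library. The part of length in the Smad ratios was not tested beyond that setting, which was chosen after seeing the data.

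**Figure D1:**
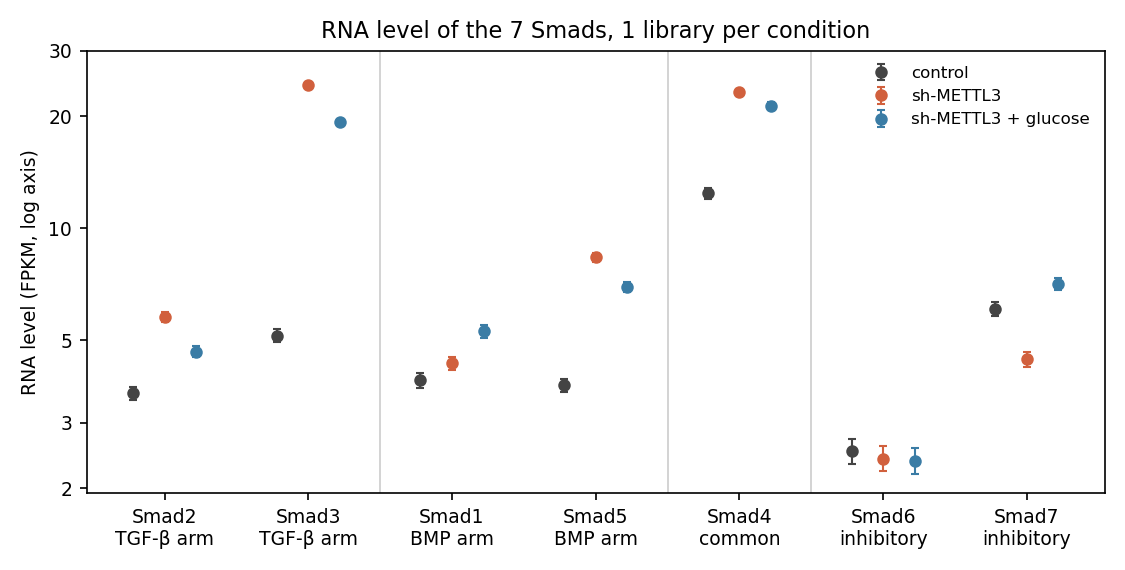
RNA level of each Smad in FPKM on a log axis, 1 point per library, with 95% exact Poisson intervals of the counts. Smad3, Smad4 and Smad5 are lowest in the control, Smad6 lies between 2.37 and 2.52 in all 3 libraries, and Smad7 is lowest in the library labelled sh-METTL3.

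In the BMP arm, Smad5 stood at 3.78, 8.35 and 6.94 FPKM. Its count ratios to the control were 2.25 (2.14 to 2.36) and 1.85 (1.76 to 1.95), with log2 ratios of 0.87 and 0.58 relative to the median gene. Smad1, which answers to the same receptors, stood at 3.90, 4.34 and 5.28 FPKM. Smad1 was thus highest with glucose and Smad5 without it. The log2 ratio of Smad1 to the control was 0.02 in the library labelled sh-METTL3, where its sign changed with the processing (-0.17 to 0.12 over 9 settings), and 0.20 with glucose. Smad9, a further BMP effector that is not among the 7, stood at 0.983, 0.426 and 1.65 FPKM.

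Smad4, the shared partner of the receptor Smads, stood at 12.4, 23.2 and 21.3 FPKM, and was the most abundant Smad in the control. Its count ratios to the control were 1.90 (1.83 to 1.98) and 1.73 (1.66 to 1.80), and its log2 ratios relative to the median gene 0.75 and 0.58. Both virus libraries lay above the control and close to each other, with a ratio of 0.910 (0.880 to 0.941) between them.

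The inhibitory Smads took other courses. Smad6, which acts mainly on BMP signals, stood at 2.52, 2.40 and 2.37 FPKM, and the interval of its count ratio included 1 in all 3 comparisons. Those intervals ran from 0.867 to 1.08, from 0.849 to 1.06 and from 0.876 to 1.10. Smad7, which blocks TGF-beta receptors and is itself a target of Smad3, stood at 6.06, 4.44 and 7.08 FPKM. Of the 7 it was the only one whose level was lowest in the library labelled sh-METTL3, with a count ratio of 0.745 (0.699 to 0.794) to the control, 1.18 (1.11 to 1.24) for glucose over control and 1.58 (1.48 to 1.68) for glucose over the library labelled sh-METTL3. On the log2 scale relative to the median gene these were -0.48, 0.04 and 0.51, the second with a sign that changed with the processing (-0.03 to 0.19).

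Counted at a 2-fold difference relative to the median gene, 1 of 7 Smads, Smad3, was higher in the library labelled sh-METTL3 than in the control, where 9.15% of tested genes were higher, and 0 were lower, against 9.86%. For glucose over control 1 of 7 was higher, again Smad3, against 5.32% of tested genes, and 0 were lower, against 5.70%. For glucose over the library labelled sh-METTL3 0 of 7 were higher and 0 lower, against 2.48% and 2.18%. The median tested gene itself lay 0.10 and 0.16 (log2) above the control before centring. Of the genes counted, 48.1% were higher in the library labelled sh-METTL3, 58.8% without centring and 58.5% with centring by gene length. For glucose over control the shares were 48.3%, 69.2% and 60.4%, and for glucose over the library labelled sh-METTL3 53.1% and, without centring, 60.4%. Both comparisons with the control share that control library, so their values are not independent of each other.

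**Figure D2:**
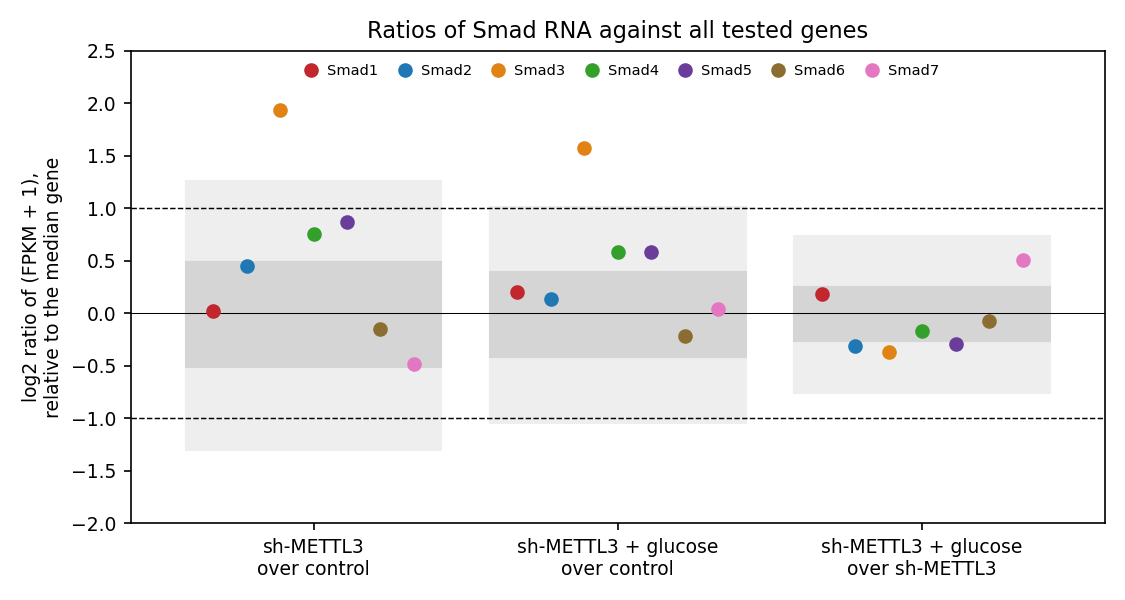
Log2 ratio of (FPKM + 1) of each Smad relative to the median gene, for the 3 comparisons, with dashed lines at the 2-fold limits. Light grey bands span the 5th to 95th percentile of all 11591 tested genes and dark bands the quartiles; Smad3 lies above the light band against the control, at 1.94 and 1.57.

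The order of the Smads changed with their levels. In the control it ran Smad4, Smad7, Smad3, then Smad1, Smad5 and Smad2, whose neighbours did not differ beyond counting error, and Smad6. In the library labelled sh-METTL3 Smad3 came first, followed by Smad4, Smad5, Smad2, then Smad7 and Smad1, which did not differ beyond counting error, and Smad6. In the glucose library the order was Smad4, Smad3, then Smad7 and Smad5 with overlapping intervals, Smad1, Smad2 and Smad6. Smad6 was last in each. Summed by arm, a division chosen after seeing the values, Smad2 and Smad3 together held 8.74, 30.0 and 24.0 FPKM and Smad1 and Smad5 7.68, 12.7 and 12.2. The ratio of the TGF-beta arm to the BMP arm was thus 1.14, 2.36 and 1.96. Within the TGF-beta arm the ratio of Smad3 to Smad2 was 1.43, 4.20 and 4.14. The inhibitory pair held 8.58, 6.84 and 9.45 FPKM, and its ratio to the 4 receptor Smads was 0.523, 0.160 and 0.261. For the pair of Smad7 and Smad3, inhibitor over effector, the ratio was 1.18, 0.183 and 0.367. All 7 Smads together held 37.4, 72.7 and 66.9 FPKM, of which Smad3 made up 13.7%, 33.3% and 28.8%.

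The genes whose levels over the 3 libraries were most like those of Smad3 were Wwc1, Wbp1l, Ptpn14, Heatr3 and Pkd2, by distance between centred log2 values among 5506 genes with a mean of at least 5 FPKM. Wwc1, a scaffold of the Hippo pathway, lay at a distance of 0.0310, with 8.77, 40.4 and 31.7 FPKM. Wbp1l lay at 0.0452, the phosphatase Ptpn14 at 0.0659, Heatr3 at 0.0770 and the cation channel Pkd2 at 0.0885. Over only 3 libraries such likeness is a description.

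All 7 Smads carried an m6A peak in all 3 lists, as did 66.5% of tested genes. By annotation, all 7 had a peak annotated to the 5'UTR in every list, against 15.5% of tested genes, 16.5% of the 7003 genes with a mean level within the Smads' range (2.43 to 19.0 FPKM) and, for peaks at an adjusted p under 0.05, 13.3%, where the Smads were again 7 of 7. These counts were chosen after seeing the values and carry no test. For Smad2 they rest on weak 5'UTR peaks in the control list (fold 2.05, percentile 10.7) and the list labelled sh-METTL3 (1.66, percentile 3.6). In the glucose list its 5'UTR peak (fold 5.03) lay apart from these, at the gene start. There it covered a control peak that did not pass an adjusted p of 0.05. A 3'UTR peak in every list, the usual place of m6A near the stop codon, was found in 4 of 7 (Smad1, Smad2, Smad3 and Smad7) against 52.8% of tested genes. Of the Smad peaks 57.1%, 47.4% and 52.6% were annotated to the 5'UTR in the control list, the list labelled sh-METTL3 and the glucose list, against 14.7%, 15.3% and 17.4% of all peaks. Peaks reaching the annotated gene start were found in 4 of 7 Smads in the control list, against 10.4% of tested genes. In the list labelled sh-METTL3 they were found in 5 of 7, against 17.3%, and in the glucose list in 7 of 7, against 23.6%. Peaks run from their first to their last base with introns included, and 3, 3 and 4 of the Smad peaks were longer than 10 kb for that reason. A 5'UTR annotation of such a peak does not place the enriched bases within the 5'UTR alone.

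**Figure D3:**
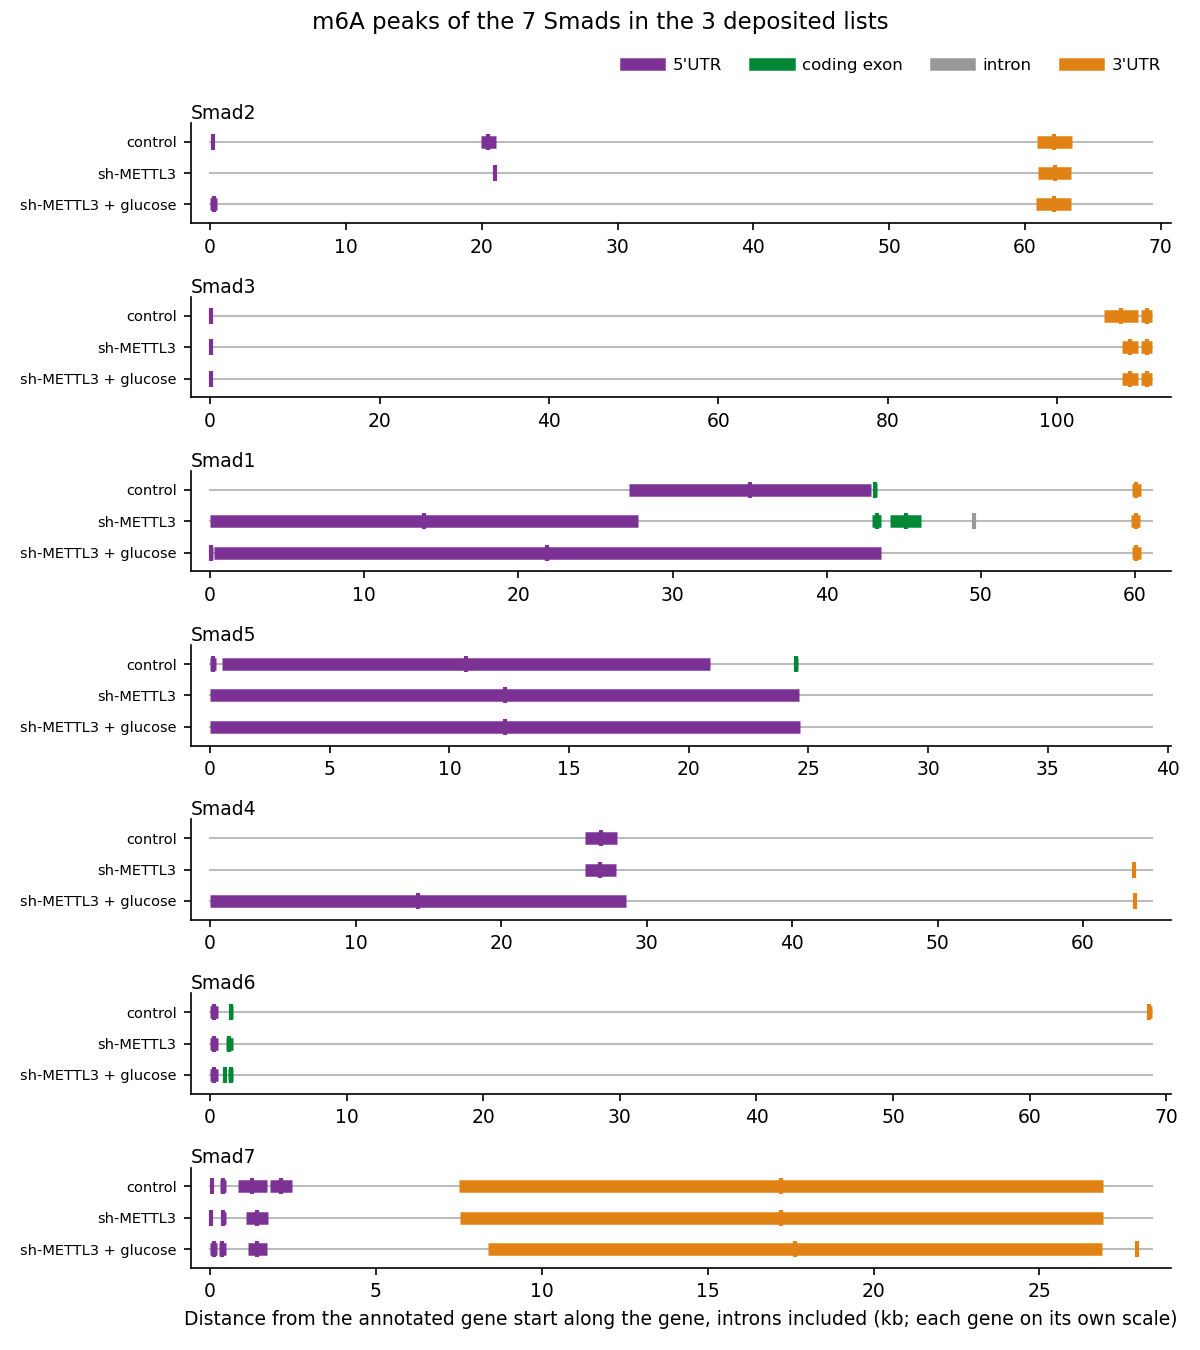
Deposited m6A peaks of each Smad in the 3 lists, as distance from the annotated gene start in kb along the gene, each gene on its own scale and coloured by the authors' annotation, with a tick at each peak's centre. Each Smad has a purple 5'UTR peak in every list, Smad5 has no orange 3'UTR peak in any, and long bars are peaks that span introns.

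The Smads differed in where their strongest peak lay. The fold enrichments that follow, of pulled-down over input RNA, are the authors' values and are read within each list. In Smad1, Smad2 and Smad3 the highest fold was in the 3'UTR in every list, and in Smad4, Smad5, Smad6 and Smad7 in the 5'UTR. Smad3 had the same arrangement throughout, with 1 peak at its start and 2 in its 3'UTR. Its 5'UTR peak (chromosome 9, 63757754 to 63757994 in the control list) had folds of 5.74, 5.47 and 7.04 in the control list, the list labelled sh-METTL3 and the glucose list. Its last 3'UTR peak (63646767 to 63648115, the same bases in all 3 lists) had folds of 10.9, 7.47 and 7.87. The neighbouring 3'UTR peak, of 4073 bases in the control list and 1948 and 1858 in the others, had 12.1, 8.72 and 6.65. In the control list and the list labelled sh-METTL3 both 3'UTR peaks had a higher fold than the 5'UTR peak, and in the glucose list 1 of them did.

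Smad7 held the Smad peak with the highest fold in the control list, and Smad6 in the other 2 lists. A peak of Smad7 annotated to the 5'UTR, which began 838, 1078 and 1137 bases into the gene, had folds of 56.4, 57.9 and 18.0, at percentiles 99.5, 99.6 and 95.9 of all peaks in its list. Smad7 also had a 3'UTR peak of over 18 kb, introns included, with folds of 7.37, 8.87 and 3.91. Within each list the fold of the 5'UTR peak was the higher of these. In Smad6 the 5'UTR peak (chromosome 9, 64021490 to 64022059 in the control list) had folds of 12.4, 71.8 and 22.6, at percentiles 81.5, 99.7 and 97.8. Smad6 is the Smad with the fewest RNA counts (620 to 672), and no read counts under the peaks were used, so the precision of this ratio is unknown.

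Smad5 lacked a 3'UTR peak in every list, and its peak at the gene start had folds of 17.7, 31.2 and 15.1. In the control list it was split into a peak of 270 bases and a second one of 20426 bases at fold 15.3, while in the others it was 1 peak of 24611 and 24641 bases. Smad4 had a 5'UTR peak with folds of 8.83, 7.00 and 6.35, and 3'UTR peaks at 1.43 in the list labelled sh-METTL3 and 1.51 in the glucose list, at percentiles 1.0 and 3.0. These are weak peaks near the bottom of their lists. Smad1 had 3'UTR folds of 11.5, 12.7 and 11.5, and Smad2 of 7.54, 4.90 and 6.81. In the control list the 5'UTR peaks of Smad2 began at 210 and at 19913 bases from the gene start. The one in the list labelled sh-METTL3 began at 20872 and overlapped the later of these. The one in the glucose list ran from the start itself to 545 bases and covered the earlier one. The control peak at 210 bases had an adjusted p that did not pass 0.05 (log10 of -0.303).

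Most Smad peaks were found in all conditions. At an overlap of 1 base, 17 of 21 control peaks (81.0%) were found in both other lists, against 75.5% of all control peaks. The counts were 15 of 19 (78.9%, against 71.1%) for the list labelled sh-METTL3 and 14 of 19 (73.7%, against 62.8%) for the glucose list. The 13 Smad peaks not found in both others came from Smad1, Smad2, Smad4, Smad6 and Smad7. None came from Smad3 or Smad5.

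The authors also deposited tables of differential peaks, limited to peaks with a p under 0.05, from which a change of m6A between conditions can be read with their own test. For the condition labelled sh-METTL3 over control, the authors' deposited table holds 6 Smad peaks, of which 3 have an adjusted p under 0.05. These are a 3'UTR peak of Smad3, lower with a log2 fold change of -0.14 (adjusted p = 0.0324), the 5'UTR peak of Smad4, lower at -0.335 (adjusted p = 0.0389), and the 5'UTR peak of Smad5, higher at 0.34 (adjusted p = 0.00891), all in the authors' deposited table. Those sizes are small beside the median absolute log2 fold change of 0.56 over all peaks that table calls. Of the 7 Smads, 1 thus had a higher and 2 a lower peak, against 15.1% and 5.17% of genes with a peak in both lists. Peaks of Smad1 (0.474, adjusted p = 0.0912), Smad2 (-0.363, adjusted p = 0.106) and the last 3'UTR peak of Smad3 (-0.125, adjusted p = 0.193) stand in the authors' deposited table without passing.

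For glucose over control, the authors' deposited table calls 6 of 7 listed Smad peaks, in Smad3, Smad5 and Smad7. Both 3'UTR peaks of Smad3 were lower in the authors' deposited table, at -0.262 (adjusted p = 0.0339) and -0.564 (adjusted p = 3.31e-09). In Smad7 the authors' deposited table has a lower 3'UTR peak at -0.996 (adjusted p = 5.75e-10) and a lower 5'UTR peak at -1.46 (adjusted p = 7.08e-05), but a higher one over the first 480 bases, at 0.951 (adjusted p = 0.0398). In that table Smad7 m6A therefore differed in opposite directions within 1 gene. The deposited folds over those first 480 bases went both ways. At the gene start the fold was 10.5 in the control list and 8.45 in the glucose list. For the next peak it was 2.87 and 8.48. The 5'UTR peak of Smad5 was higher, at 0.451 (adjusted p = 0.000204) in the authors' deposited table. By gene, 2 Smads had a higher and 2 a lower peak, with Smad7 in both, against 29.6% and 28.1% of genes with a peak in both lists. Here the share of Smads was near the background.

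For glucose over the condition labelled sh-METTL3, the 4 called Smad peaks of the authors' deposited table were all lower. They lay in the 3'UTR of Smad3 (-0.424, adjusted p = 4.17e-05), in the 3'UTR (-1.04, adjusted p = 3.98e-11) and 5'UTR (-0.983, adjusted p = 0.0107) of Smad7 and in the 5'UTR of Smad1 (-0.621, adjusted p = 0.00776), per the authors' deposited table. Smads with a higher called peak numbered 0 of 7, against 13.6% of genes, and with a lower one 3 of 7, against 17.9%. The peak over the first 480 bases of Smad7 was listed as higher there (0.914, adjusted p = 0.0513) without passing, as was the 3'UTR peak of Smad2 (0.378, adjusted p = 0.0977), in the authors' deposited table. The first 2 tables share the control, and each pair of tables shares a condition. No peak of Smad6 was listed in any of the 3.

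**Figure D4:**
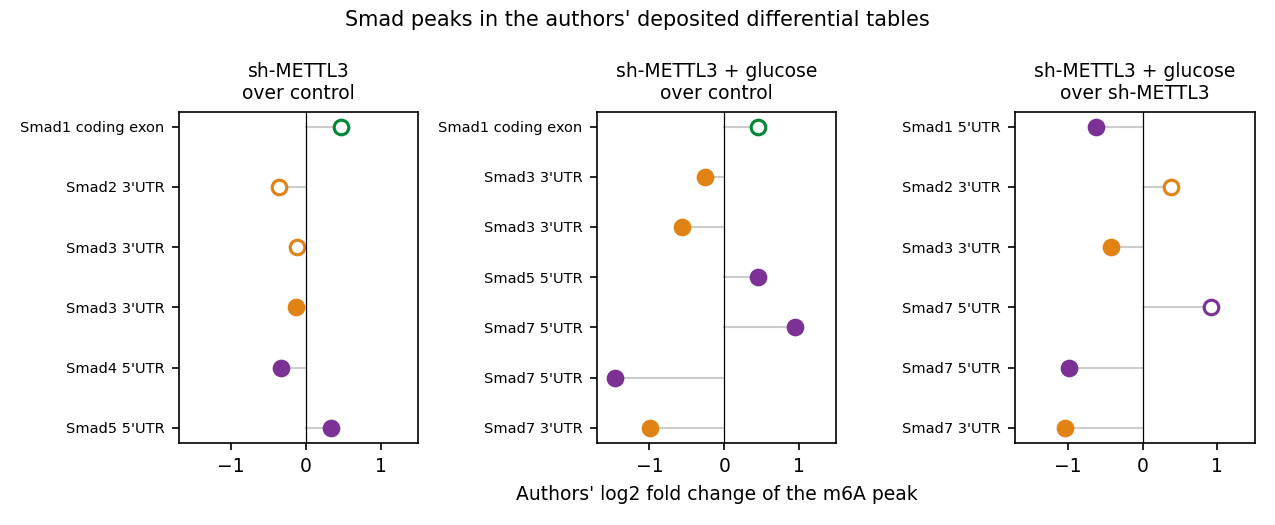
Log2 fold change of every Smad peak listed in the authors' deposited differential tables, 1 panel per comparison, with filled points for an adjusted p under 0.05 and colours by annotation (purple 5'UTR, green coding exon, orange 3'UTR). The largest values are those of Smad7 with glucose, from -1.46 to 0.951, and Smad3 points are negative in each panel.

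RNA and m6A of Smad3 can be set side by side. Its RNA was higher in both virus libraries than in the control, at 4.79 and 3.78 times the count share. Its called 3'UTR peaks were lower in the authors' deposited tables of the same pairs of conditions, which rest on pulled-down and input samples. For Smad5, RNA (2.25 and 1.85 times) was higher, and so was the 5'UTR peak called in those tables. The deposited folds of its 5'UTR peaks went the other way with glucose, at 15.1 against 17.7 and 15.3 in the control list. For Smad4, RNA was higher (1.90 times) and the called 5'UTR peak lower in the pair without glucose. For glucose over the condition labelled sh-METTL3, RNA (0.789 times) and the called 3'UTR peak of Smad3 were both lower. In that pair Smad7 (1.58 times) and Smad1 (1.21 times) had higher RNA and lower called peaks. For glucose over control Smad7 had higher RNA by count share (1.18 times) with called peaks in both directions. The pairing of RNA and m6A thus differed between genes and, for Smad3, between comparisons, and no relation between them was tested.

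Around the Smads, 10 lists of pathway genes with 75 tested members were read at the same 2-fold limit. In the library labelled sh-METTL3 over control 11 were higher and 8 lower, in glucose over control 7 and 1, and in glucose over the library labelled sh-METTL3 5 and 1. Over all tested genes the shares were 9.15% and 9.86%, 5.32% and 5.70%, and 2.48% and 2.18%, against which each list count below is to be read. With a pseudocount of 0.1 the last 2 comparisons had 15 and 12 list genes past the limit in place of 8 and 6. Of the receptors for TGF-beta and activin 4 of 5 tested were higher in the library labelled sh-METTL3 and 0 lower, with a median log2 ratio of 1.15 where that of all tested genes is 0. The list has 8 receptors, and the filter on mean FPKM bears on that count: it kept Tgfbr1, which was under 1 FPKM in the control, and left out Acvr2b, at 1.11, 0.608 and 0.633 FPKM. Eng and Acvr1c, the other untested receptors, stood at most at 0.378 and 0.00512 FPKM. Tgfbr2, the receptor that binds TGF-beta, stood at 2.75, 21.1 and 19.9 FPKM. Tgfbr1, its partner that phosphorylates Smad2 and Smad3, stood at 0.619, 3.04 and 2.01. With glucose over control 2 of the 5 were higher, Tgfbr2 (log2 ratio 2.32) and the co-receptor Tgfbr3 (1.09), with a median of 0.86, and against the library labelled sh-METTL3 0 were, with a median of -0.13. Acvr2a, an activin receptor, stood at 1.49, 4.94 and 2.61 FPKM.

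Of 5 tested ligands of that arm, Gdf11 was higher in the library labelled sh-METTL3 (log2 ratio 1.03), and with glucose over control Gdf11 (1.53) and Inhba, a subunit of activin (1.17). For glucose over the library labelled sh-METTL3 Inhba was higher (1.37). Gdf11 (0.817, 2.98 and 4.83 FPKM) and Inhba (0.816, 0.698 and 3.55) were under 1 FPKM in the control. The filter on mean FPKM kept both through libraries where they were higher. Tgfb1, the main TGF-beta ligand, was at 8.35, 8.58 and 7.70 FPKM. The medians of the ligands were -0.07, 0.44 and 0.50 in the 3 comparisons. In the BMP arm 0 of 2 tested ligands, of 10 in the list, passed the limit in any comparison (medians 0.89, 0.84 and -0.06). Bmp4, 1 of the 2, stood at 0.573, 2.04 and 1.83 FPKM. The filter kept it through libraries where it was higher, and these medians rest in part on it. Of 3 tested BMP receptors Bmpr1a was higher in the library labelled sh-METTL3 (1.32), at 12.8 against 4.14 FPKM, and 0 passed in the other comparisons (medians 0.82, 0.35 and -0.47).

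Regulators of the Smads came in 4 lists. Among 6 extracellular latency proteins and antagonists, Ltbp1, which holds TGF-beta in the matrix, was lower in the library labelled sh-METTL3 (-1.02), and 0 passed otherwise (medians 0.04, 0.20 and 0.26). Among 12 nuclear partners and corepressors, the acetyltransferase Ep300 was higher in the library labelled sh-METTL3 (1.92) and with glucose over control (1.30), with medians of 0.40, 0.18 and -0.20. Of 10 anchoring, phosphatase and shuttling proteins, with medians of 0.36, 0.19 and -0.09, Xpo4 passed the limit. Xpo4, which exports Smad3 from the nucleus, stood at 0.946 FPKM in the control and was higher in the library labelled sh-METTL3 (1.33). Of 13 ubiquitin ligases, deubiquitinases and receptor decoys, Usp9x, which removes ubiquitin from Smad4, was higher there (1.44), with medians of 0.46, 0.38 and -0.06.

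Target genes went in both directions. Of 17 tested targets of TGF-beta and Smad3, 2 were higher in the library labelled sh-METTL3 over control, near the 9.15% of all tested genes, Thbs1 (log2 ratio 2.92) and Tgfbi (1.86). Lower there were 5, against 9.86% of all tested genes, namely the protease inhibitor Timp1 (-2.28), the contractile genes Acta2 (-2.19) and Tagln (-1.78), the transcription factor Snai1 (-1.40) and the cell cycle inhibitor Cdkn1a (-1.25). Thbs1, which activates latent TGF-beta, stood at 17.6, 150 and 73.6 FPKM. Tgfbi stood at 0.788, 5.98 and 3.28 FPKM, so the filter kept it through the libraries where it was higher. Acta2, the smooth muscle actin, stood at 15.8, 2.94 and 15.2. So the control and the glucose library were close for Acta2 and far apart for Thbs1. For glucose over control Thbs1 (1.85) and Tgfbi (1.10) were higher and Timp1 (-1.30) lower. For glucose over the library labelled sh-METTL3 the higher targets included Acta2 (1.99) and Cdkn1a (1.55), and Thbs1 (-1.07) was lower. The medians of the 17 were 0.19, 0.30 and 0.21. Of 4 tested BMP targets, the transcription inhibitors Id1 (-1.28) and Id3 (-1.57) were lower in the library labelled sh-METTL3, and Id1 was higher with glucose over that library (1.80), while 0 passed for glucose over control (medians -0.67, 0.51 and 0.70). Id1 stood at 39.2, 16.8 and 63.6 FPKM, lowest, like Smad7, in the library labelled sh-METTL3.

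**Figure D5:**
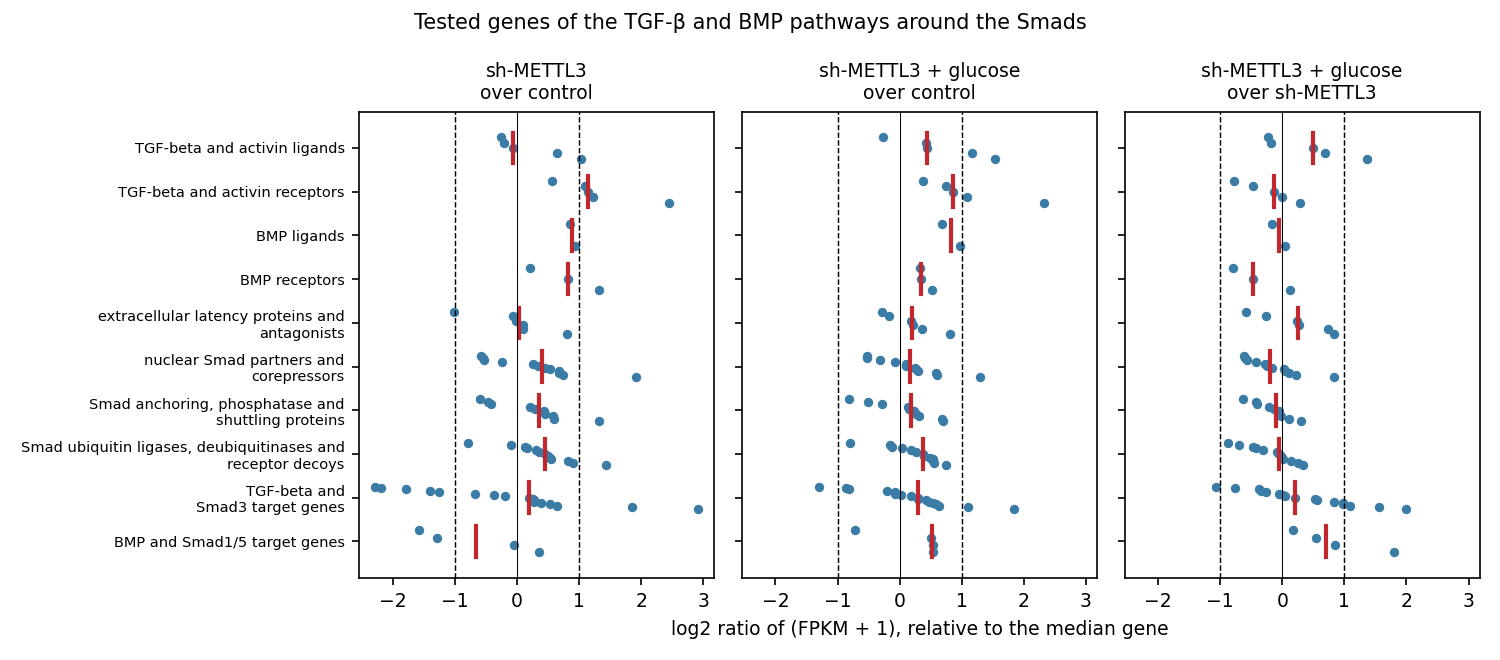
Log2 ratio of (FPKM + 1) relative to the median gene for each tested gene of the 10 pathway lists, 1 panel per comparison, with red bars at the list medians and dashed lines at the 2-fold limits. Points of the TGF-beta and activin receptors lie to the right in the first panel (median 1.15), and those of the target genes spread to both sides, from -2.28 to 2.92.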

How the data were processed

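Per the labels' protocols, fragments of poly(A) RNA from MPC5 cells were immunoprecipitated for m6A and made into dUTP-marked libraries. The tools named, without their roles, in the submitters' processing notes are HISAT2 2.0.4, fastp 0.19.4, HOMER 4.10, StringTie 2.1.2 and edgeR 4.1. Not given in the sources used here are the peak caller and whether counting used strand. GRCh38, a human build, is named there; the coordinates were checked to match mouse GRCm38. The deposited RNA table holds whole-number counts and FPKM, per the file headers, in 1 column each per condition, matched by library name to the samples of unnamed kind. Also not given in those sources is whether these were separate or pooled input libraries. The authors' peak lists, 1 per condition, give a fold enrichment (a ratio of immunoprecipitated over input RNA), and scores that are log10 p-values and adjusted p-values, as deposited. The authors' differential tables give a log2 fold change with its p-value. Signs were compared with those of ratios of the deposited folds, for differential peaks that overlapped exactly 1 peak in each list. These were 2473, 5521 and 3254 of 3518, 8208 and 4968 listed peaks. Signs were the same in 90.4%, 90.0% and 89.1% of the compared peaks. The table of glucose against sh-METTL3 had its signs turned to glucose over sh-METTL3.

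From these files, log2 of (FPKM + 1) ratios were computed over the 11591 genes whose mean FPKM reached 1, and their median was subtracted; a log2 ratio of at least 1 in size counted as a difference. Intervals are exact at 95%. RNA differences carry no p-value, having 1 library per condition, and the count tests planned for replicated libraries were not run. The number of unused per-sample columns was 0. Peak starts had 1 added. Alternatives used a pseudocount of 0.1, no centring, TMM factors (edgeR 4.0.16 in R 4.3.3), median-of-ratios factors, quantile normalization, no filter, stricter and looser peak thresholds and a larger overlap, with centring by length decile and protein-coding genes alone added after seeing the data. Python 3.11.15, pandas 2.3.3, numpy 2.4.6 and scipy 1.17.1 were used, and the ratio step was tested on simulated data. Named genes are the members, every list gene past the 2-fold limit, apart from items that are not reported here, and the 5 genes most like Smad3; others were chosen after their values were seen. The members, the 10 pathway lists and the 5 marker lists (podocyte, tubular, mesangial and fibroblast, endothelial, leukocyte) were chosen with earlier results of these data known. A few genes stand in 2 pathway lists.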

Additional observations from a re-analysis of the deposited data

How the results depend on the processing

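Smad3 was at least 2-fold higher than the control, in both comparisons, under all 9 settings of the RNA ratio. Its log2 ratios ran from 1.80 to 2.09 without glucose and from 1.45 to 1.72 with it. The setting with no filter centred on the same genes as the main one, so its Smad ratios were the same by construction. These are among the ratios and counts said below to stay close. No centring and protein-coding genes alone shift all genes of a comparison by 1 constant. With a pseudocount of 0.1 Smad5 reached 1.00, so 2 Smads and not 1 were counted in the library labelled sh-METTL3 over control. That pseudocount also raised the pathway genes counted from 8 to 15 for glucose over control and from 6 to 12 for glucose over the library labelled sh-METTL3. Over all genes it gave 1742 higher and 1567 lower genes (1061 and 1143 with a pseudocount of 1), 1290 and 939 (617 and 661), and 505 and 487 (287 and 253) in the 3 comparisons. For peaks with at least a fold of 4 and adjusted p under 0.001, 11 of 19 Smad peaks were left in the list labelled sh-METTL3. Of differential Smad peaks in the authors' deposited tables, 6 were listed at any adjusted p for the condition labelled sh-METTL3 over control against 3 called. With a log2 fold change of at least 1 in size, 0, 1 and 1 of 3, 6 and 4 called peaks were left. In 55 other recomputed counts over the Smads, their peaks and the lists the value stayed within 1.5 times, and of single Smad ratios 130 stayed close and 38 moved, with no called value changing sign; the cause was not tested. No paired analysis was possible because the RNA table holds 1 column and the peak lists 1 list per condition. The planned search for the DRACH motif and its alternative were not run, since no genome was used here. Leaving out a replicate was not possible for the same reason as the pairing. Depth limits Smad6 most, at 620 to 672 counts, and the depth behind the peaks is unknown.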

Other observations

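Peaks of the pathway genes around the Smads also differed in the authors' deposited tables. At an adjusted p under 0.05 these hold 19 peaks of 17 list genes for the condition labelled sh-METTL3 over control, 13 higher and 6 lower. For glucose over control the authors' deposited table holds 50 peaks of 39 list genes, 20 higher and 30 lower. For glucose over the condition labelled sh-METTL3 it holds 35 peaks of 28, 13 higher and 22 lower. Of all peaks called in the authors' deposited tables, 76.1%, 55.5% and 45.6% were higher in the same 3 comparisons. Of tested genes with a peak in both lists, 15.1%, 29.6% and 13.6% had a higher called peak. A lower one was held by 5.17%, 28.1% and 17.9%. The receptor Tgfbr2, whose RNA was higher in both virus libraries, had lower peaks: a coding peak at -0.37 (adjusted p = 2.63e-07) without glucose, and a 3'UTR peak at -0.741 (adjusted p = 0.000955) with it, both over control in the authors' deposited table. The 3'UTR peak of Skil, a corepressor of Smad3 that Smad3 also induces, was higher with glucose. In the authors' deposited tables it stood at 2.41 over control (adjusted p = 3.02e-10) and 1.72 over the condition labelled sh-METTL3 (adjusted p = 4.9e-05). Skil RNA stood at 3.71, 5.04 and 5.48 FPKM. The 3'UTR peaks of Id1 and Id3 were lower than in the control in both tables, Id3 at -0.745 (adjusted p = 1.26e-11) and -0.918 (adjusted p = 3.98e-18), per the authors' deposited tables. The 5'UTR peak of Id2 was higher, at 0.541 and 0.991 over control (adjusted p = 2.24e-05 and 1.58e-20), in the authors' deposited tables. For glucose over the condition labelled sh-METTL3 it was higher at 0.381 (adjusted p = 4.79e-06) in the authors' deposited table. A 3'UTR peak of Id2 was lower for glucose over control, at -0.261 (adjusted p = 0.000229) in the authors' deposited table. These genes were chosen after their values were seen.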
